A study of Mus musculus with 24 samples.

Results

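Resting regulatory T cells (rTreg cells, sorted as CD62L+ CD44- Treg cells) from the spleens of old and young mice were compared by bulk RNA-seq. They make up 8 of the 24 libraries of the data set, 4 from old and 4 from young wild-type C57BL/6JRccHsd mice, 1 library per mouse. The young mice were 2 months old and the old mice 26 months old. Activated cells (aTreg, CD62L- CD44+) and KLRG1+ cells (kTreg) gave the other 16 libraries. From the shared sample numbers they were taken to be of the same mice. They are used only where the effect of age is set beside that in rTreg cells. No mouse was treated, and the libraries are pools of sorted cells, so that a gene used by more cells and a gene used more by each cell cannot be told apart. A gene was tested if its normalized count (the reads of the gene divided by 1 size factor per library) was 10 or more in at least 4 of the 8 libraries, which held for 14361 of the 17464 genes listed.

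Treg cells are CD4+ T cells that restrain other immune cells. They depend on the transcription factor FOXP3 and on the IL-2 receptor, whose alpha chain is CD25. Resting Treg cells recirculate through lymphoid organs, whereas effector Treg cells switch on transcription factors such as T-bet and BLIMP-1, chemokine receptors for tissues and the IL-33 receptor ST2 (gene Il1rl1).

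The 8 libraries held between 15915017 and 29521942 reads on listed genes, and the median was 18511096 for the young and 23366316 for the old ones. The number of listed genes without a read ran the other way, from 554 to 1146 in the young and from 1215 to 2756 in the old libraries. The mean absolute log2 difference between 2 libraries was 0.345 to 0.610 among the young, 0.679 to 1.129 among the old and 0.704 to 1.132 between the ages. The ranges among the old and between the ages overlap.

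The libraries carried the genes that define Treg cells. Foxp3 stood at 21854, 20577, 24096 and 29388 normalized counts in young and at 26513, 20458, 13151 and 26265 in old rTreg cells, and Cd4 at 9235 to 12879 in young and 9973 to 14596 in old cells. The 2 groups overlapped in both genes, and neither difference passed the test (log2 old minus young of −0.19 ± 0.30 SE, limma adjusted p = 0.764, for Foxp3 and 0.19 ± 0.13, adjusted p = 0.41, for Cd4). The groups also overlapped in Cd44, an activation marker used in the sort, which lay between 1628 and 2509 in young and between 1733 and 3756 in old cells, and Klrg1 never exceeded 357. Of the 20 genes of the T cell receptor complex and lineage, limma called 0 in either direction, with 0 at an unadjusted p below 0.05 and the same fold and 0 by edgeR or DESeq2, and their median log2 difference was −0.14 beside −0.06 over all genes tested. Without young replicate 2 limma called 1 of them higher. It also called 1 higher when genes of other cells were left out and the libraries rescaled.

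In old rTreg cells 662 genes were higher and 236 lower by limma (adjusted p under 0.05 and a change of more than 1.5-fold), which is 4.61% and 1.64% of the genes tested. All 4 old libraries lay above all 4 young ones in 542 of the 662, and below them in 174 of the 236. Over all genes tested the groups were apart in this way in 7.48% with old higher and in 4.87% with old lower. Of the 662 higher genes, 26 belonged to marker lists of other blood cells, 5 more were immunoglobulin genes, 101 belonged to the remaining lists and 530 to none of these. The remaining lists are not all of T cell genes, and they include mitosis (35 higher) and DNA replication (17 higher). Outside the lists of other cells and the immunoglobulin genes, 631 of 14239 genes tested were higher (4.43%). None of the 236 lower genes belonged to a list of other cells. Single libraries moved these totals. Without young replicate 3, the shallowest of the 8, 404 genes were higher and 77 lower, without young replicate 1 the lower genes numbered 116, and without old replicate 3 they numbered 422. Without old aTreg replicate 2 and young kTreg replicate 4, which enter only through the shared estimate of the spread, 1105 genes were higher and 597 lower. When only the 8 rTreg libraries were fitted, without the 16 others, 431 were higher and 73 lower (3% and 0.508%), of which 358 and 56 were among the calls above. The larger share of higher calls, 73.7%, was 60.2% after the libraries were scaled to equal medians.

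**Figure D1:**
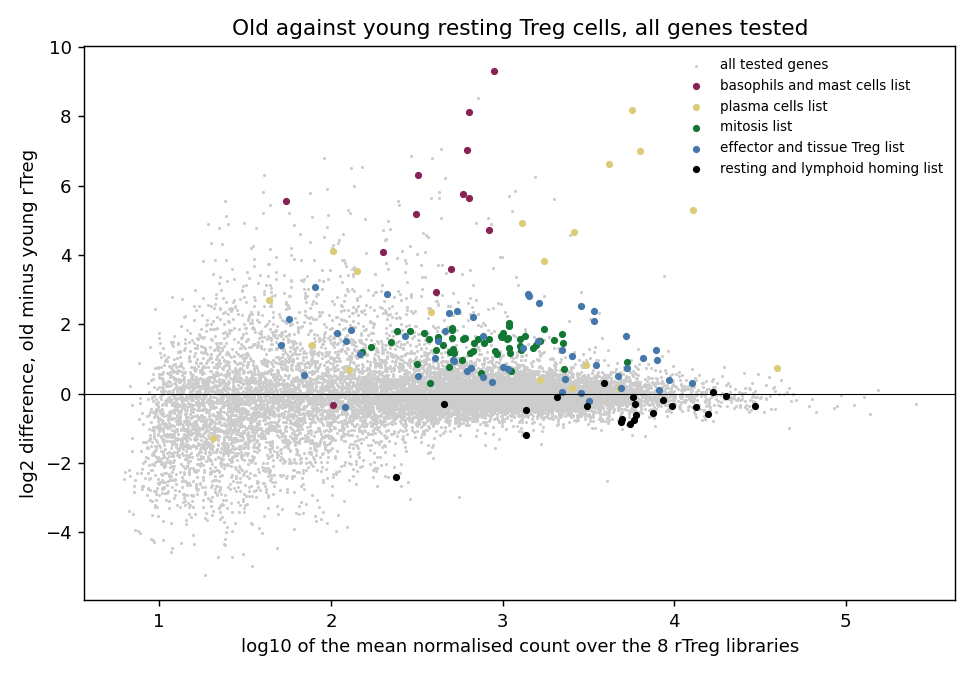
Log2 difference of old minus young rTreg cells (vertical) against the log10 of the mean normalized count over the 8 libraries (horizontal), with 1 point for each of the 14361 genes tested and 5 gene lists in color. Basophil and plasma cell genes lie highest, mitosis genes form a compact group near their median of 1.47, and the genes of the resting list lie mostly below 0.

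Genes of cells other than T cells were among the largest differences. Basophils are rare granulocytes that carry proteases, histamine and the high-affinity IgE receptor. Of the 13 basophil and mast cell genes tested, 12 were higher in old rTreg libraries and 0 lower, against 4.61% of all genes tested, with a median log2 difference of 5.55. Prss34, a basophil protease, stood at 27.7, 0, 0 and 0 in young and at 620, 3401, 2111 and 1013 in old cells. Mcpt8, the other protease typical of basophils, stood at 12.3, 0, 5.27 and 2.01 in young and at 479, 1984, 1569 and 1039 in old cells. Every old library exceeded every young one in both genes, and the log2 differences were 9.30 ± 1.126 SE (limma adjusted p = 2.1e-05) and 8.13 ± 1.10 (adjusted p = 6.47e-05). The same separation held for Gata2, a transcription factor of basophils, mast cells and blood progenitors, with 6.16 to 11 in young and 788 to 1731 in old cells (7.02 ± 0.76, adjusted p = 5.44e-06), and for Ms4a2, a chain of the IgE receptor (6.30 ± 0.86, adjusted p = 6.74e-05). Cd200r3 was higher as well, from 63.7 to 116 in young and from 418 to 1395 in old cells. The remaining members called higher were Fcer1a, Cpa3, Hdc, Cyp11a1, Il4, Hgf and Alox5.

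Summed over the list, basophil transcripts came to 350, 541, 393 and 419 in the young and to 7073, 11179, 18658 and 10420 in the old rTreg libraries. In the 16 aTreg and kTreg libraries the sum stayed between 48.5 and 1194. The old rTreg libraries thus stood above all others. The list was also higher with age in kTreg cells at these lower levels, where the sums were 48.5 to 480 in young and 409 to 1194 in old mice. Of the 13 genes, 5 (Prss34, Ms4a2, Cpa3, Gata2 and Il4) were called higher, against 0.759% of all genes tested in kTreg cells. The median log2 difference was 3.26. The sum of 48.5 was that of young kTreg replicate 4, in which 4913 listed genes had no read, against 419 to 2756 in the other libraries. The other young kTreg sums were 365, 480 and 291, so the ages overlapped in kTreg cells. When the levels of the basophil, plasma cell, neutrophil and platelet lists were added to the model as covariates, 195 genes were higher and 1512 lower, 47 and 26 of them among the calls above. The basophil level separates the ages in these 8 libraries, so that its part and that of age cannot be told apart.

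Plasma cells secrete antibody and B cells are their precursors. Of 19 plasma cell genes tested, 6 were higher and 0 lower in old rTreg cells (median log2 difference 2.70), and of 27 immunoglobulin genes 9 were higher and 0 lower. These shares higher were 31.6% and 33.3%, against 4.61% of all genes tested. The kappa constant region Igkc stood at 155, 7822, 368 and 278 in young and at 23955, 18205, 29306 and 23399 in old cells (5.30 ± 1.05, limma adjusted p = 0.00285). The IgA heavy chain Igha stood at 7.19 to 281 in young and at 5683 to 30017 in old cells (adjusted p = 0.00132). The groups were apart in both genes, but young replicate 2 alone held nearly all the Igkc of the young group. Sdc1, the plasma cell surface proteoglycan CD138, was higher in old cells (148 to 232 against 1.00 to 74.2, adjusted p = 0.00622). Jchain, which joins antibody monomers, was at 50.3 to 1025 in young and 2941 to 9158 in old cells without passing the test (adjusted p = 0.0536), and it passed without young replicate 2 (adjusted p = 0.03). Txndc5, a disulfide isomerase of the endoplasmic reticulum, was higher by 0.82 ± 0.13 on the log2 scale.

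Neutrophil and platelet genes were less uniform. Of 16 neutrophil genes tested 3 were higher in old rTreg cells (18.75%, against 4.61% of all genes tested). Ctsg, a granule protease of neutrophil precursors, was without a read in all 4 young libraries and at 24, 330, 318 and 54.9 in the old ones, which is at least 54.4-fold higher against a floor of 3 reads per library (limma adjusted p = 2.7e-05). Ctsg could pass the filter only through the old libraries. Mpo, myeloperoxidase, stood at 0, 0, 10.5 and 0 in young and 11, 1546, 572 and 198 in old cells, where the lowest old library barely exceeded the highest young one. S100a8 and S100a9, the alarmins of mature neutrophils, overlapped widely, with 8.03 to 885 and 17.1 to 1611 in young and 10.01 to 3613 and 2.00 to 5193 in old cells, and old replicates 2 and 3 held nearly all of their transcripts. The chemokine receptor Cxcr2 was higher in old cells, at 396 to 1608 against 5.14 to 245. Of 7 platelet and megakaryocyte genes tested, Itga2b (336 to 964 in old, 21.6 to 34.3 in young cells) and Nfe2 (169 to 901 against 17.5 to 55.4) were higher. That is 28.6%, against 4.61% of all genes tested. The platelet granule genes Pf4 and Ppbp were low in both groups, at 0 to 100 counts, and overlapped. Itga2b and Nfe2 are also known from basophils, mast cells and progenitors.

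Other cell types followed in part. Axl was the 1 gene of 14 tested for monocytes and macrophages that was higher (218 to 1001 in young, 1147 to 2339 in old cells), and the lysozyme gene Lyz2 stood at 515 to 6548 in young and 9381 to 25153 in old cells without passing the test. The share higher was 7.14%, beside 4.61% of all genes tested. The sums of this list were apart all the same, at 1196 to 11996 in young and 12303 to 28487 in old libraries. Of 8 natural killer cell genes, Klrb1c (62.0 to 174 in young, 262 to 750 in old cells) and the signaling adaptor Tyrobp (78.1 to 757 against 904 to 4699) were higher, and Ncr1 at 39.1 to 110 and 127 to 568 was not called. The share higher in this list was 25%, against 4.61% of all genes tested. The natural killer sums were 330 to 1893 in young and 2232 to 7666 in old libraries. Limma called none of the 12 B cell genes, with 0 at an unadjusted p below 0.05 and 0 by edgeR or DESeq2. Young replicate 2 held most of their transcripts. The B cell antigen receptor gene Cd79a stood at 5242 in young replicate 2 and at 88.4 to 219 in the other 7 libraries, and Ms4a1, which encodes CD20, at 2560 in that library and at no more than 117 elsewhere. Cd8a was also highest there, at 744 against at most 41.9. The B cell sums of the other 3 young libraries, 2742 to 5360, lay below those of the old ones, 10585 to 16041. Without young replicate 2 the median log2 difference of the list was 1.47 and 1 gene was called higher, Cd74, the invariant chain of MHC class II, which is named here after its values were seen.

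**Figure D2:**
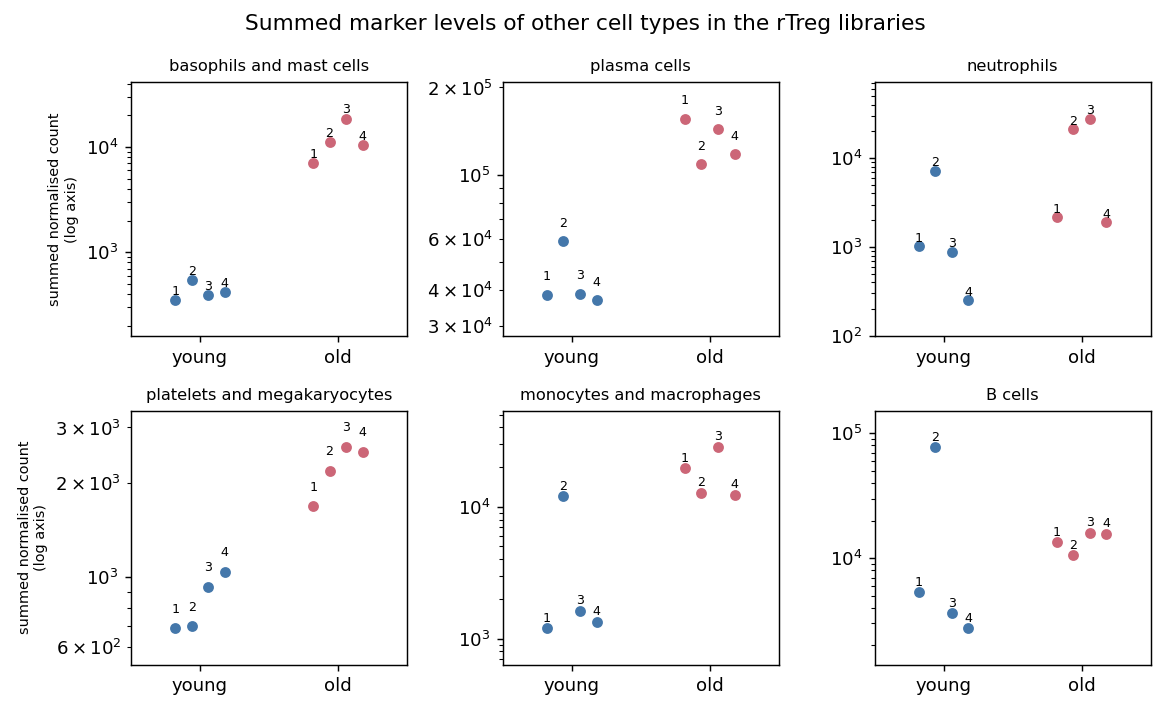
Summed normalized counts of 6 marker lists of other cell types in the 8 rTreg libraries, on log axes, with the replicate number beside each point. The basophil, plasma cell, platelet and macrophage sums of the old libraries lie above all young ones, though the macrophage sum of young replicate 2 is close. The neutrophil sums split the old libraries into 2 high and 2 low ones, and young replicate 2 is the highest young library for B cells, neutrophils and macrophages.

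Young replicate 2 stood apart from the other young libraries in its B cell sum (77838 against 2742 to 5360) and in its sums for neutrophils (7259 against 252 to 1012) and monocytes and macrophages (11996 against 1196 to 1622). Without it, 772 genes were higher and 230 lower in old rTreg cells, 5.38% and 1.6% of the genes tested, and 626 of the 662 higher and 178 of the 236 lower genes were called again. None of the 662 and none of the 236 turned its direction. The basophil list kept 12 higher members, the plasma cell list came to 7, and the mitosis and effector lists described next rose to 41 and 31 members called.

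Genes of effector and tissue Treg cells were often higher. Of 52 tested, 27 were higher (51.9%, against 4.61% of all genes tested) and 0 lower in old rTreg cells. The median log2 difference was 1.11, and 50 of 52 differences were above 0. With only the 8 rTreg libraries, and likewise without young replicate 3, 19 were higher and 0 lower. With the lists of other cells as covariates 8 of the 52 were higher and 3 lower, beside 195 higher and 1512 lower of all 14361 genes tested. The 27 called higher include the transcription factors Maf, Prdm1, Batf, Rora, Tbx21, Id2, Nfil3, Ahr and Pparg, the chemokine receptors Ccr2, Ccr10, Cxcr3 and Cxcr6, the receptors Icos, Pdcd1, Tnfrsf1b, Il1rl1 and Cd200r1, the suppressive mediators Il10 and Fgl2, and S100a4, S100a6, S100a11, Lgals3, Anxa2 and Itgb1. Several of these, Lgals3, Fgl2, Ccr2 and Il1rl1 among them, are also used by macrophages, mast cells or basophils.

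Cxcr3 (chrX:100775141-100777875, GRCm39, minus strand), the receptor for interferon-induced chemokines, stood at 1459, 1575, 732 and 785 in young and at 6885, 6576, 4666 and 4484 in old rTreg cells (2.37 ± 0.23, limma adjusted p = 1.31e-06). Tbx21, which encodes T-bet, the factor that drives Cxcr3, stood at 168, 265, 131 and 138 in young and at 961, 1168, 594 and 892 in old cells (2.38 ± 0.28, adjusted p = 1.93e-05). Both genes separated the groups without overlap, and the levels of old rTreg cells had come to those of young aTreg cells, at 5653 ± 1253 against 5097 ± 1013 for Cxcr3 and 904 ± 237 against 826 ± 115 for Tbx21 (mean ± SD, n = 4 each). Cxcr6, a receptor of tissue-resident lymphocytes, was higher as well (229 to 638 in young, 1445 to 3527 in old cells, 2.82 ± 0.32). Il1rl1 (chr1:40468730-40504575, plus strand) stood at 154, 209, 132 and 133 in young and at 1249, 688, 686 and 629 in old rTreg cells (2.33 ± 0.23, adjusted p = 1.31e-06). Its level was 203 ± 29.1 in young and 186 ± 50.5 in old aTreg cells, and 4904 ± 778 and 4388 ± 915 in young and old kTreg cells.

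Other receptors and signaling genes were among the 15 higher genes with the smallest p outside the lists of other cells. Gpr15, a homing receptor for the large intestine, stood at 301, 329, 171 and 172 in young and 2981, 2639, 2323 and 944 in old cells. Il18rap, the accessory chain of the IL-18 receptor, was at 77.3 to 230 in young and 724 to 1270 in old cells. Ltb4r1, a leukotriene B4 receptor, was at 14.5 to 57.6 in young and 236 to 539 in old cells. The log2 differences were 3.13 ± 0.33, 2.90 ± 0.32 and 3.46 ± 0.37, each with a limma adjusted p of at most 5.62e-06. Map2k3, a kinase upstream of p38, showed a small but tight difference, from 1777 to 1995 in young and from 2912 to 3663 in old cells (0.77 ± 0.08, adjusted p = 3.73e-06). Myo1f, a myosin of blood cells, was higher (340 to 1318 against 3857 to 5798), as were the exocytosis genes Baiap3 (65.9 to 134 against 693 to 1882) and Sytl3 (36.1 to 57.6 against 340 to 578) and the matrix protein gene Podnl1 (137 to 285 against 862 to 1505).

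The inhibitory receptors Lilrb4a and Lilrb4b, neighbors of near-identical sequence between which reads may be divided uncertainly, were higher in old cells. Lilrb4b stood at 57.5, 160, 44.8 and 62.2 in young and at 1679, 4105, 6359 and 3425 in old cells (5.60 ± 0.39, limma adjusted p = 1.55e-08), and Lilrb4a at 19.8 to 147 and 1162 to 1709 (4.92 ± 0.42). They are known from mast cells and other myeloid cells as well as activated lymphocytes. Bmx, a kinase of the TEC family, had the smallest p of all in the fit to 24 libraries. It was without a read in every young rTreg library and in all 16 aTreg and kTreg libraries, and it stood at 85.1, 69.7, 121 and 50.3 in old rTreg cells, at least 24.4-fold higher against a floor of 3 reads per library (adjusted p = 3.16e-09). Of the 24 libraries, the 4 of old rTreg cells were the ones that held it, so it passed the filter through them alone. The groups without a read add no spread to the shared estimate. With only the 8 rTreg libraries its limma adjusted p was 0.00169.

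Secreted and cytotoxic molecules were higher too. Of 19 genes of cytotoxic and age-associated T cells 7 were higher and 0 lower (median log2 difference 1.18). That is 36.8% higher, against 4.61% of all genes tested. With the lists of other cells as covariates 2 of the 19 were higher and 1 lower, beside 195 higher and 1512 lower of all 14361 genes tested. The chemokine gene Ccl5 stood at 197, 426, 293 and 200.7 in young and at 1096, 2156, 2199 and 1283 in old cells (2.59 ± 0.31, limma adjusted p = 1.94e-05). The granule gene Nkg7 stood at 562 to 1851 in young and 3865 to 6617 in old cells (2.16 ± 0.34), and Gzmk, granzyme K, at 0 to 18.8 and 283 to 1598 (7.06 ± 1.06). The groups were apart in all 3 genes. Ccl4, a chemokine for T cells and monocytes, was higher by 6.23 ± 0.55 (9.97 to 64.7 against 1236 to 7644), and Ccl3, Cst7 and Ctla2a were the remaining genes called in this list. The log2 difference of Ccl4 was 1.15 in aTreg and 1.20 in kTreg cells, whose libraries held lower basophil sums than old rTreg cells. Which cells of the libraries held Ccl4 and Ccl3 was not tested. Of 16 cytokine genes 3 were higher and 1 lower (18.75% and 6.25%, against 4.61% and 1.64% of all genes tested). Il6 stood at 4.11, 0, 2.64 and 3.01 in young and at 131, 263, 454 and 353 in old cells (6.54 ± 0.63, adjusted p = 1.31e-06), Csf1 at 273 to 314 and 993 to 1597 (2.05 ± 0.37), and Il4 at 0 to 4.11 and 50.3 to 250. Il4, Il6 and Csf1 are also made by basophils or mast cells, and their levels are those of the libraries with the high basophil sums. Lta, lymphotoxin alpha, was lower in old cells (2419 to 3762 in young, 1489 to 1912 in old cells, −0.81 ± 0.19, adjusted p = 0.011). Cdh1, E-cadherin (0 to 12.3 against 395 to 1056), was, with Gzmk, Il6 and Ccl4, among the 5 largest differences without overlap among genes with a mean of 50 or more, outside the lists of other cells and apart from immunoglobulin and provisionally named genes.

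**Figure D3:**
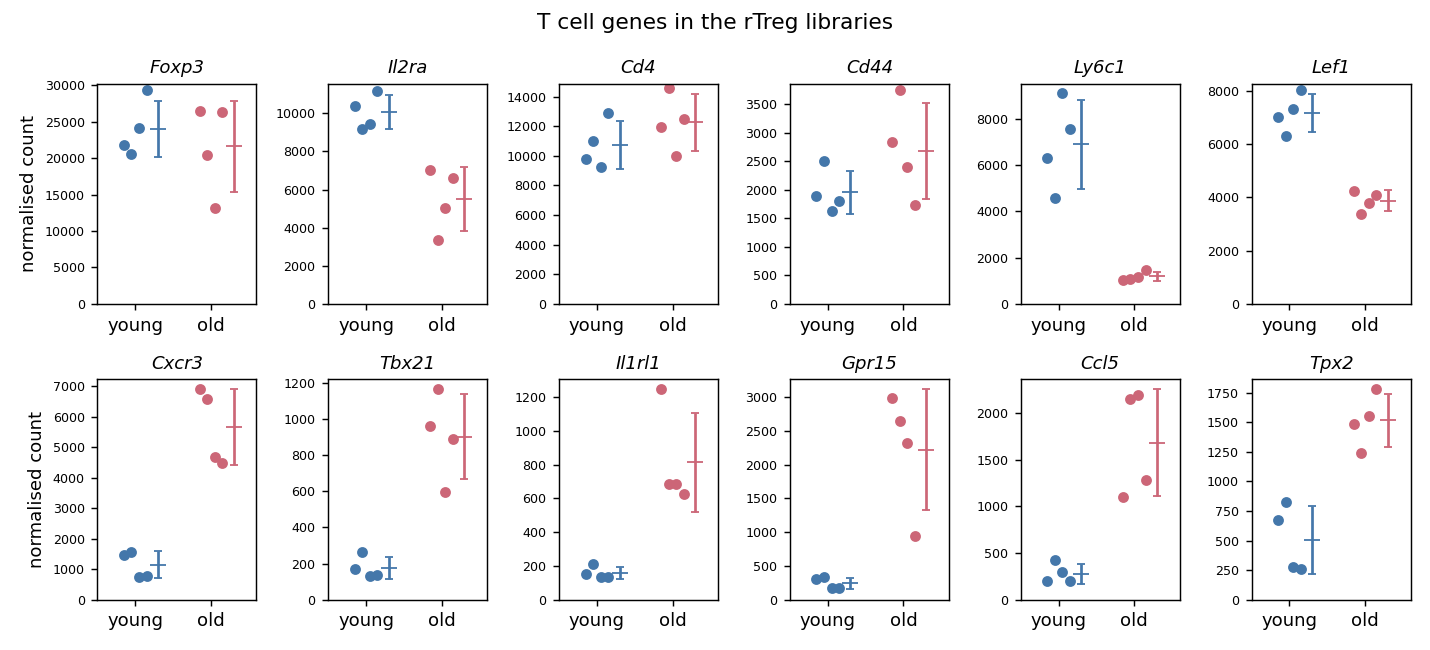
Normalized counts of 12 genes in the 4 young and 4 old rTreg libraries (points) with the mean and SD beside them. Foxp3, Cd4 and Cd44 overlap between the ages, Il2ra, Ly6c1 and Lef1 are lower in old cells, and Cxcr3, Tbx21, Il1rl1, Gpr15, Ccl5 and Tpx2 are higher without overlap.

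The Treg core list moved in both directions. Of 19 genes tested 3 were higher and 2 lower (15.8% and 10.5%, against 4.61% and 1.64% of all genes tested). Itgae, the integrin CD103 that retains T cells in epithelia, stood at 1149, 2011, 689 and 1119 in young and at 8923, 6371, 4544 and 4322 in old cells (2.32 ± 0.34, limma adjusted p = 0.000138). The checkpoint receptor Tigit (143 to 668 against 956 to 1702) and the semaphorin receptor Nrp1 (3689 to 5510 against 6683 to 8461) were higher as well. Il2ra, which encodes CD25, the sorting marker of Treg cells, was lower. It stood at 10400, 9199, 9462 and 11167 in young and at 7021, 3334, 5027 and 6605 in old cells (−0.93 ± 0.19, adjusted p = 0.00353). Socs2, a suppressor of cytokine signaling, was lower too (1790 to 2512 against 1080 to 1646, −0.74 ± 0.15). Ikzf2 and Ctla4 overlapped between the ages, at 2951 to 4613 against 2892 to 5812 and at 6521 to 8911 against 7500 to 8593.

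Genes of the resting and lymphoid homing state were lower. Of 22 tested, 5 were lower and 0 higher, against 1.64% of all genes tested, and the median log2 difference was −0.37. Lef1 (chr3:130903919-131018005, GRCm39, plus strand), a transcription factor of naive T cells, stood at 7012, 6310, 7310 and 8039 in young and at 4238, 3374, 3806 and 4107 in old rTreg cells (−0.88 ± 0.14, limma adjusted p = 0.000371). Klf3 (6511 to 8312 against 2910 to 5350), the survival gene Bcl2 (5206 to 6710 against 3108 to 4328), Id3, a partner of E-proteins (5290 to 8713 against 2392 to 4780), and Cd55, an inhibitor of complement (1530 to 2123 against 487 to 1217), were the other 4. All 5 separated the groups, with log2 differences of −0.73 to −1.19. Without young replicate 3, 2 of the 22 were called lower.

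Cell division genes were higher as well. Of 55 mitosis genes tested 35 were higher (63.6%, against 4.61% of all genes tested) and 0 lower in old rTreg cells. All 55 differences were above 0, and their median was 1.47. They include the proliferation antigen Mki67, topoisomerase Top2a, the mitotic cyclins Ccna2, Ccnb1 and Ccnb2, the kinases Plk1, Aurka, Aurkb, Bub1 and Bub1b and the kinesins Kif11, Kif15, Kif20a, Kif22, Kif23 and Kif2c. Prc1, which bundles microtubules in the midzone of the spindle, stood at 563, 785, 227 and 290 in young and at 1583, 1384, 1864 and 1989 in old cells (2.03 ± 0.32, limma adjusted p = 0.000347). Racgap1, its partner in cytokinesis, stood at 1395, 1480, 622 and 711 in young and at 3362, 3251, 2439 and 2612 in old cells (1.56 ± 0.24, adjusted p = 0.000271). In both genes every old library lay above every young one, and young replicates 1 and 2 lay above young replicates 3 and 4. The spindle genes Tpx2 (255.9 to 822 against 1243 to 1784) and Kif22 (423 to 1155 against 2282 to 3082) showed the same order.

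Many genes of mitosis share 2 short promoter elements, the CCAAT box bound by NF-Y and the cell cycle genes homology region (CHR), whose core is TTTGAA. The promoters of 3 of the genes above are shown because both elements stand near the start in each. The 100 bases from 80 before to 20 after the start are from RefSeq on GRCm38.p6, written along the gene, with both elements in capitals, on either strand (ATTGG and TTCAAA are their reverse).
Racgap1, chr15:99651637-99651736, minus strand: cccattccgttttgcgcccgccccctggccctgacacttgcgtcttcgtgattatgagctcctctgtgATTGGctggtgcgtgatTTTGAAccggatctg
Prc1, chr7:80294371-80294470, plus strand: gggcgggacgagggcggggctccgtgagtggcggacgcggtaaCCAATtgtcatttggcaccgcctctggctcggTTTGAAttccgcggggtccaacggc
Kif22, chr7:127042401-127042500, minus strand: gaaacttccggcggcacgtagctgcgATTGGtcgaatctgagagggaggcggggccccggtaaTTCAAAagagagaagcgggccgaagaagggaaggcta
In windows from 250 bases before to 50 after the start, on both strands, TTTGAA was present in 21 of the 29 called mitosis genes that had a promoter in the table (72.4%) and CCAAT in 21 (72.4%). Among the 15 uncalled mitosis genes with a promoter, 11 held each motif (73.3%). TTTGAA was present in 12.4% and CCAAT in 39.2% of the promoters of 9670 genes tested, and in 18.1% and 37.9% of all 27025 promoters. These are matches of letters and not evidence of binding.

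Genes of DNA replication went the same way to a lesser degree. Of 46 tested 17 were higher (37.0%, against 4.61% of all genes tested) and 0 lower, with a median log2 difference of 0.80. Pole, the leading strand polymerase, stood at 202, 374, 111 and 146 in young and at 480, 636, 787 and 801 in old cells (1.82 ± 0.31, limma adjusted p = 0.000635). E2f2 (679 to 1061 against 1451 to 2032), an activator of S phase genes, the ribonucleotide reductase subunit Rrm2 (1120 to 3184 against 4322 to 5792) and the polymerase subunit Pold1 (1081 to 1946 against 2248 to 2931) were higher too, and with them Mcm2, Mcm3, Mcm5, Mcm6, Rrm1, Prim1, Ccne1, E2f1, Uhrf1, Dnmt1, Lig1, Rfc5 and Clspn. The inhibitor Cdkn2c, which is itself induced in cycling cells, was the 1 of 10 genes of the CDK inhibitor and retinoblastoma family that was higher (240 to 595 against 896 to 1043). Of 27 p53 targets 2 were higher, the BH3-only gene Pmaip1 (163 to 220 against 398 to 758, 1.46 ± 0.25) and the apoptosome gene Apaf1 (268 to 452 against 508 to 636, 0.71 ± 0.21). The shares higher were 10% for the CDK inhibitor family and 7.41% for the p53 targets, beside 4.61% of all genes tested.

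The number of division genes called depended on the young libraries and on the fit. Relative to the mean of the young rTreg cells, the median of the mitosis list was 0.56, 0.82, −0.65 and −0.77 in young and 1.36, 1.48, 1.51 and 1.46 in old rTreg libraries. Without young replicate 3, 12 of 55 mitosis and 8 of 46 replication genes were called higher, with only the 8 rTreg libraries 15 and 5, by edgeR 25 and 11, and with the 4 lists of other cells as covariates 0 and 0. In that fit 1 mitosis and 2 replication genes were called lower, while the medians were 0.93 and 0.44. Over all 14361 genes tested it called 195 higher and 1512 lower, with a median of −0.28. The old libraries had mitosis medians of 1.36 to 1.51, neutrophil sums of 1901 to 27865 and basophil sums of 7073 to 18658. Their plasma cell sums were 108958 to 156100, and the basophil and plasma cell sums lay above all young ones. The source of the division transcripts among the cells of the libraries was not tested.

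The lower genes were fewer and of several kinds. Ly6c1 (chr15:74915847-74920686, GRCm39, minus strand), a surface protein of the Ly6 family, had the smallest p. It stood at 6317, 4592, 9121 and 7558 in young and at 1019, 1092, 1157 and 1488 in old rTreg cells (−2.51 ± 0.35, limma adjusted p = 8.9e-05). Its level in old rTreg cells came to that of aTreg cells (904 ± 255 in young, 861 ± 631 in old, mean ± SD, n = 4 each). Its neighbor Ly6c2, of near-identical sequence, was higher instead, at 203 to 784 in young and 671 to 3271 in old cells with overlap (2.25 ± 0.53, adjusted p = 0.0109), and the counting could have divided reads between the pair.

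Lower genes of chromosome structure were Smc4, a core subunit of condensin, at 21445, 17487, 24720 and 21288 in young and 13348, 11267, 9931 and 14431 in old cells (−0.80 ± 0.13, limma adjusted p = 0.000485), and Smc6 of the SMC5/6 complex, at 4167 to 5832 and 2934 to 3163 (−0.70 ± 0.12). Condensin acts in mitosis, so Smc4 went against the mitosis list. The forkhead gene Foxn3, at 3812 to 4903 and 1939 to 2563, was lower with an adjusted p of 0.000451. St8sia6, a sialyltransferase (2322 to 3382 against 1267 to 1784), Fundc1, a mitophagy receptor (1575 to 1767 against 883 to 1282), Sco1, a copper chaperone of cytochrome oxidase (285 to 360 against 32.8 to 204), and Them4, a thioesterase (217 to 320 against 81.6 to 131), were lower without overlap. So were the genes Tigd2 (1272 to 1614 against 671 to 920) and Zfp1001 (1603 to 2124 against 542 to 1140).

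Some lower genes rested on few reads. Of the 236, 81 had a mean below 50 over the 8 libraries and 9 were without a read in all 4 old libraries, the group with more listed genes at 0. Zfp629 (17.5 to 21.1 in young cells), Pipox (12 to 44.3), Myzap (29.0 to 39.9) and Cabyr (12.2 to 17.1) were at 0 in every old library, at least 7.09-, 9.004-, 14.0- and 5.51-fold lower against a floor of 3 reads per library (limma adjusted p from 0.000257 to 0.00189). Genes at 0 in every old library could pass the filter only through the young ones, which fixed their direction. Their p values are therefore no independent support. Rasl11b (397 to 609 against 36.0 to 198), Dapk1 (140 to 230 against 0 to 87.1) and Spaca1 (125 to 199 against 10.7 to 96.4) were, with Ly6c1 and Sco1, the largest falls without overlap among genes with a mean of 50 or more, provisionally named genes apart, and Dapk1 was called under 14 and Spaca1 under 18 of 28 alternative settings.

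Genes of the cytosolic ribosome leaned to lower values. Of 86 tested 10 were lower (11.6%, against 1.64% of all genes tested) and 0 higher. The median log2 difference was −0.47, and 6 of the 86 differences were above 0. Rps7 stood at 3055, 2399, 3343 and 2128 in young and at 1471, 1134, 1904 and 1446 in old cells (−0.88 ± 0.24, limma adjusted p = 0.0285), Rpl35 at 3997 to 6526 and 1435 to 3814 (−1.05 ± 0.29), and Rps3a1 at 16196 to 22806 and 9252 to 15074 (−0.73 ± 0.17). Rps3a2, a near-identical copy that can share reads with Rps3a1, was lower too (−0.72 ± 0.17) though the groups overlapped, at 3842 to 5445 and 2362 to 3878. The list's median was −0.87, −0.71, 0.21 and −0.56 in the old libraries relative to young rTreg cells, with old replicate 3 apart from the other 3. Without young replicate 3 no ribosomal gene was called by limma, with the covariates the median turned to 0.77, and edgeR called 7 lower.

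Interferon-stimulated genes did not move as a group. Of 67 tested 2 were higher and 4 lower (2.99% and 5.97%, against 4.61% and 1.64% of all genes tested), with a median of −0.21. Oas1a, an antiviral sensor, was higher (623 to 1097 against 1337 to 1938, 1.10 ± 0.21), besides Ly6c2. The PYHIN genes Ifi208 (3615 to 5550 against 1435 to 3445), Ifi213 (1472 to 2293 against 541 to 1793) and Ifi214 (1052 to 1863 against 640 to 1195), which are similar in sequence, were lower, besides Ly6c1. Of 11 follicular genes Tox2 (42.2 to 121 against 111 to 644) and Cebpa (3.01 to 29.9 against 60.1 to 160) were higher, Tox2 with overlap, and Cebpa is also a factor of myeloid cells. The share of follicular genes higher was 18.2%, against 4.61% of all genes tested. The immediate early gene Ier3 (15.1 to 47.6 against 336 to 1091) and the heat shock gene Hspa1a (8.22 to 35.1 against 75.1 to 457) were each the 1 member of their lists that was higher, of 23 and 19. These shares, 4.35% and 5.26%, were near the 4.61% of all genes tested. In glycolysis the lactate exporter Slc16a3 (158 to 390 against 360 to 653) was higher and Pdk1, which restrains pyruvate oxidation (3509 to 4887 against 1458 to 3341), lower, of 21. Each is 4.76% of the list, beside 4.61% higher and 1.64% lower over all genes tested.

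None of 78 mitochondrial ribosomal protein genes, 49 genes of complex I, 42 of complexes II to V and 12 encoded by the mitochondrial genome was called by limma, and at an unadjusted p below 0.05 and the same fold the numbers were 1, 1, 0 and 1. DESeq2 and edgeR each called 1 mitochondrial ribosomal gene lower and none of the others. The medians of the 4 lists were −0.21, −0.25, −0.17 and 0.02. Differences above 0 numbered 9 of 78, 5 of 49, 9 of 42 and 7 of 12, beside 6407 of all 14361 genes tested. Relative to young rTreg cells, the mitochondrial ribosomal, complex I and complexes II to V medians were 0.26, 0.38 and 0.43 in old replicate 3. In the other old libraries they were −0.54 to −0.28. Without young replicate 2, 3 mitochondrial ribosomal genes were called lower. With the covariates the 4 medians were 0.38, 0.76, 0.82 and 1.20, with 2 mitochondrial ribosomal genes called lower and 2 mitochondrially encoded genes called higher. Genes of MHC class I presentation (16 tested), GIMAP GTPases (9), cholesterol synthesis (21) and recent thymic emigrants (8) also had 0 limma calls, with 0, 0, 3 and 0 at an unadjusted p below 0.05, and 0 by DESeq2 and edgeR but for 1 cholesterol gene lower by DESeq2 and 1 GIMAP gene lower by edgeR. Of 139 T cell receptor V and J genes 2 were lower and 0 higher.

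**Figure D4:**
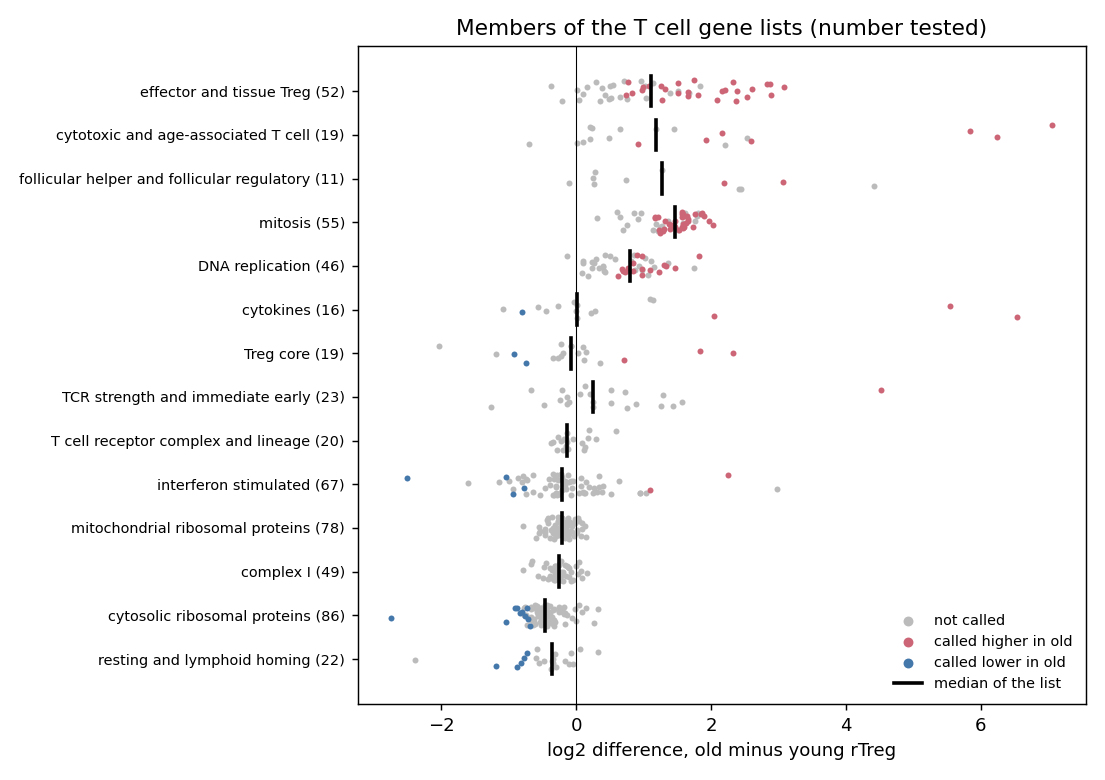
Log2 differences of old minus young rTreg cells (horizontal) for each tested member of 14 gene lists other than those of other cell types. Called members are in color and the list's median is a black bar. Called members of the effector, cytotoxic, mitosis and replication lists lie to the right of 0, those of the resting and ribosomal lists to the left, and the mitochondrial lists hold no called member.

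The same comparison of old and young mice in the other subsets was used to see which differences were shared. In aTreg cells 231 genes were higher and 137 lower in old mice (1.61% and 0.954% of the genes tested), and in kTreg cells 109 and 36 (0.759% and 0.251%). Of the 662 genes higher in old rTreg cells 93 were also higher in old aTreg cells, which is 14.0% of the first and 40.3% of the second list, and 49 in old kTreg cells (7.40% and 45.0%). Of the 236 lower genes 19 were also lower in aTreg cells (8.05% and 13.9%) and 1 in kTreg cells. The libraries differ, but by their shared sample numbers the mice were taken to be the same. By a direct test of the difference between the age effects, 235 genes (1.64%) differed between rTreg and aTreg cells and 452 (3.15%) between rTreg and kTreg cells.

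The groups of genes differed in how far they were shared. The median of the effector list was 1.11 in rTreg, 0.50 in aTreg and −0.20 in kTreg cells, and the age effect of 6 and 18 of its 52 genes differed from that in rTreg cells. For the mitosis list the medians were 1.47, 0.15 and −0.90, with 3 genes differing from aTreg and 39 from kTreg cells. Tpx2 thus went from 1148 ± 528 in young to 502 ± 107 in old kTreg cells, opposite to its direction in rTreg cells, though the fall in kTreg cells itself did not pass the test (−1.12, limma adjusted p = 0.113). The cytosolic ribosomal median was −0.47, 0.05 and −0.02. The resting list had medians of −0.37, −0.34 and −0.13, and Lef1, lower by 0.81 in old aTreg cells (adjusted p = 0.00192), was shared by rTreg and aTreg cells. Il2ra was also lower in both, by 0.93 and 1.18. Among the old aTreg libraries replicate 2 stood low in the Treg core list, with a median of −1.01 against −0.13 to 0.15 in the others, relative to young rTreg cells.

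Some genes differed between the subsets by a wide margin. F13a1, a transglutaminase of macrophages and platelets, was at 42.2 to 263 in young and 589 to 1792 in old rTreg cells (3.57 ± 0.53) and was lower in old aTreg cells (−2.43). Fam234a was higher in old rTreg cells (405 to 578 against 843 to 1373) with a fall of 1.10 in kTreg cells. Cox10, Trat1, Sptssa, Enpp4 and Tgtp1 were not called in rTreg cells (log2 −0.24, −0.65, −0.10, −0.22 and −0.11) and were higher in old aTreg cells (log2 1.134, 1.37, 1.54, 1.58 and 1.62 for Tgtp1, Enpp4, Cox10, Sptssa and Trat1). The cyclin gene Ccnd2, at 12725 to 19156 in young and 9090 to 11443 in old rTreg cells (−0.58 ± 0.11), missed the fold threshold, and Tespa1, a T cell signaling gene, was lower (3399 to 4459 against 2158 to 2765).

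**Figure D5:**
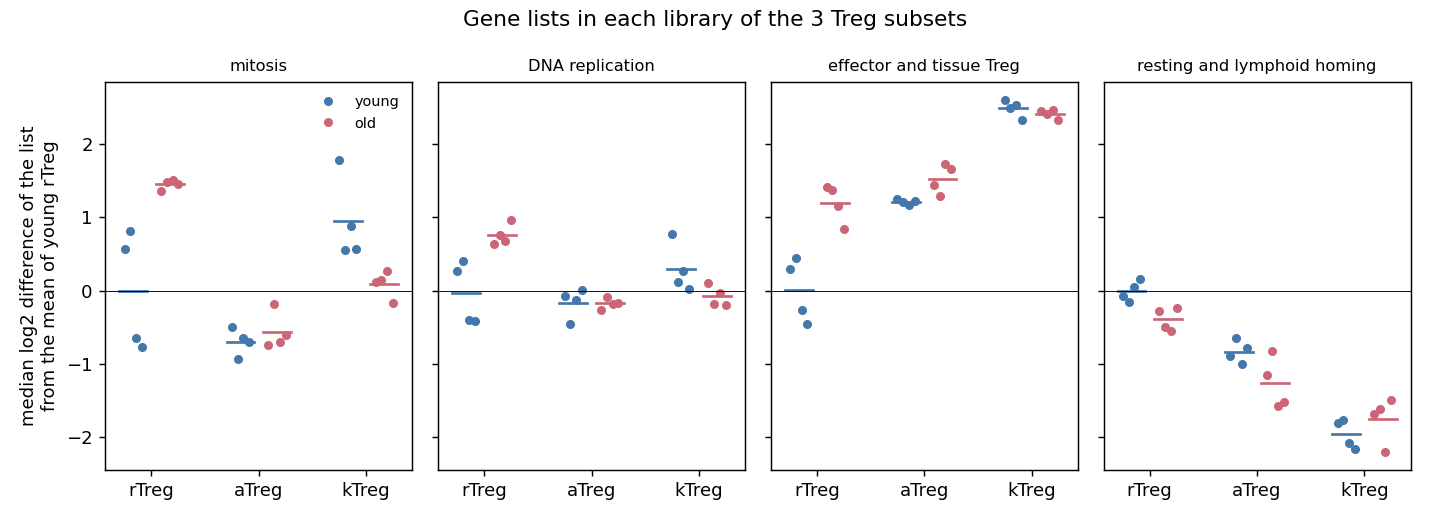
Median log2 difference from the mean of young rTreg cells (vertical) for 4 gene lists in each of the 24 libraries, with young and old mice side by side in each subset and bars at the group means. The mitosis and replication medians of the 4 old rTreg libraries lie above those of the 4 young ones, while young and old aTreg libraries overlap and the kTreg mitosis medians are lower in old mice, and the effector medians of old rTreg cells, 0.84 to 1.42, lie near those of young aTreg cells, 1.17 to 1.25.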

How the data were processed

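Splenic rTreg, aTreg and kTreg cells were sorted from young and old mice. By the shared sample numbers they were taken to be from the same 4 young and 4 old mice. Per the paper's methods, the authors made cDNA by SMART-Seq v4 with PCR amplification and no molecular identifiers. The submitters' processing notes name GRCm39, HISAT2 2.2.1, SAMtools 1.13, HTSeq 1.99.2 and DESeq2 1.44.0. The annotation release, strand setting and handling of multiply mapped reads are not given in the sources used here. The deposited values are a normalized signal, reads per gene divided by 1 size factor per library. No listed gene had fewer than 100 reads in sum. Values were whole multiples of 1 read (0.694 to 1.32) within 0.001 reads in all libraries, and 100% of values came out whole, so reads were recovered for edgeR and DESeq2. Reads amplified by PCR do not each stand for 1 molecule, and errors are those between mice.

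limma 3.58.1 (R 4.3.3, mean-variance trend) was fitted to log2(value + 1) in a model of 6 groups and 24 libraries, and the contrasts were old minus young in each subset and their differences. Fold changes are on that scale, which understates low genes. Calls needed a Benjamini-Hochberg adjusted p below 0.05 over the 14361 genes and a fold above 1.5. On recovered reads edgeR 4.0.16 called 598 genes higher and 173 lower, and DESeq2 1.42.0 941 and 255. GENCODE M39 (GRCm39) supplied the symbols and positions of 17353 of the 17464 identifiers. Python 3.11.15 with pandas 2.3.3, numpy 2.4.6 and matplotlib 3.10.9 was used for tables and plots. The fits were tested on simulated data.

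The genes, gene lists and comparisons were chosen with earlier results of these data known. Genes named were the 15 of smallest p in each direction that were called, did not overlap between groups and were in no list of other cells, the 5 of largest fold in each direction with a mean of at least 50, up to 4 called genes per list and direction, the sorting and identity markers, the defining markers of other cells, and the 5 of smallest p in each direction for the differences between subsets. T cell receptor and immunoglobulin V genes and genes with provisional names were counted and not named, and some genes that meet the rule are not reported here. Libraries of a mouse share its number across subsets, and the mouse as a replicate block (consensus correlation 0.0604) gave 675 higher and 248 lower genes.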

Additional observations from a re-analysis of the deposited data

Results flagged for a closer look

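Of the 234 groups of 4 rTreg libraries formed by the named genes and the 2 ages, 14 had 1 library that stood far from the other 3 by Dixon's criterion, which chance alone meets in about 1 in 20 groups. The library was the highest of its group for Il1rl1 in old replicate 1 (1249 normalized counts against 629 to 688 in the others), Id3 in young replicate 3 (8713 against 5290 to 5680), Ifi208 in young replicate 4 (5550 against 3615 to 3807) and Enpp4 in old replicate 4 (850 against 544 to 578). For Cd79a (5242 against 117 to 219) and Cd8a (744 against 23.7 to 30.8) it was young replicate 2. Prss34 in young replicate 1 (27.7) and Mpo in young replicate 3 (10.5) were the only young libraries above 0 for those genes. It was the lowest for Myzap in young replicate 3 (29.0 against 39.04 to 39.9), Oas1a in old replicate 3 (1337 against 1842 to 1938) and Ikzf2 in young replicate 4 (2951 against 4372 to 4613). Cdh1 and Ms4a2 in young replicate 2 and Pf4 in old replicate 4 were at 0, where the other libraries of the group held at least 10.5, 10.3 and 14.0.

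The age effect of 41 of the genes named differed between rTreg and aTreg cells by a test of the difference (limma adjusted p from 2.49e-06 to 0.0492), and that of 44 between rTreg and kTreg cells (2.49e-06 to 0.0429). The value given for each is the log2 difference of old minus young in rTreg cells minus that in the other subset. Against aTreg cells it was above 0 for Bmx (6.30), Lilrb4b (2.83), Myo1f (1.59), Lilrb4a (2.40), Podnl1 (1.46), Ccl4 (5.08), Il6 (5.84), Il1rl1 (2.48), Baiap3 (2.10), Gpr15 (2.33), Il18rap (1.81), Itgae (2.28), Tox2 (2.53), Cebpa (3.68), Racgap1 (1.37), Pole (1.98), E2f2 (1.63), Csf1 (2.5), Gata2 (5.82), Ms4a2 (4.85), Prss34 (8.13), Mcpt8 (6.57), Txndc5 (1.07), Ctsg (6.48), Tyrobp (5.75), Ncr1 (5.60), F13a1 (6.00) and Fam234a (1.81). It was below 0 for Ly6c1 (−2.23), Zfp629 (−4.04), Tigd2 (−0.69), Them4 (−1.39), Fundc1 (−0.89), Cabyr (−5.04), Sco1 (−2.30), Cox10 (−1.78), Trat1 (−2.27), Sptssa (−1.69), Ccnd2 (−0.87), Enpp4 (−1.58) and Tgtp1 (−1.24). Against kTreg cells it was above 0 for Bmx (6.30), Lilrb4b (3.30), Myo1f (2.80), Lilrb4a (2.76), Podnl1 (1.39), Ccl4 (5.03), Cxcr3 (1.72), Il1rl1 (2.5), Baiap3 (2.53), Sytl3 (2.54), Gpr15 (1.87), Map2k3 (0.97), Ltb4r1 (2.96), Il18rap (2.62), Tbx21 (1.97), Itgae (2.08), Nkg7 (1.77), Tox2 (2.39), Cebpa (3.18), Racgap1 (2.49), Prc1 (2.96), Kif22 (2.64), Tpx2 (2.88), Pole (2.07), E2f2 (1.82), Rrm2 (2.41), Cdkn2c (2.25), Txndc5 (1.21), Ctsg (4.58), F13a1 (4.76) and Fam234a (2.32). It was below 0 for Ly6c1 (−1.91), Zfp629 (−5.32), Pipox (−7.12), Tigd2 (−1.03), Zfp1001 (−1.36), Them4 (−1.84), St8sia6 (−1.25), Cabyr (−5.66), Socs2 (−0.87), Bcl2 (−1.97), Enpp4 (−2.05), Tgtp1 (−1.62) and Tespa1 (−1.05). For Bmx, Ctsg, Zfp629, Pipox and Cabyr, which 1 group lacked in all 4 rTreg libraries, these fitted values depend on the added 1 and are no bound.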

How the results depend on the processing

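The lists of other cells as covariates changed the most, with 195 higher and 1512 lower genes and 2 and 2207 genes whose age effect differed from aTreg and kTreg cells. The cause was not tested, beyond the overlap of those lists with age in these libraries. Against 662 higher, 236 lower, 235 (aTreg) and 452 (kTreg), the numbers were 1212, 915, 1839 and 2101 at unadjusted p, and 431 and 73 with only the 8 rTreg libraries, which leaves fewer samples. Array weights gave 555 lower, 602 and 1296, DESeq2 617 and 750 for the subsets, and equal medians 377 lower. Leaving out 1 rTreg library gave 404 to 772 higher, 77 to 422 lower, 70 to 366 (aTreg) and 251 to 566 (kTreg). Of alternatives chosen after seeing the data, leaving out old aTreg 2 and young kTreg 4 gave 1105, 597 and 774 (kTreg), and the 8 rTreg libraries without young 2 gave 65 lower. Old and young mice share only a number (correlations −0.053 to 0.106), and that number as a block in the 8 libraries gave 448 higher and 87 lower. The mouse as a block over 24 libraries kept each total within 1.5 times.

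With the covariates the log2 difference turned, among called genes and those whose difference is given, for Fundc1 (0.049), Gzmk (−0.30), Spaca1 (0.0094), Sco1 (0.068), Tigit (−0.20), Nrp1 (−0.18), Cebpa (−1.07), Csf1 (−1.48), Lta (0.18), Rps7 (0.71), Rps3a2 (0.16), Ier3 (−2.49), Slc16a3 (−1.39), Igkc (−1.55), Cxcr2 (−6.61), Nfe2 (−5.62), Axl (−3.48), Tyrobp (−3.64), Cd4 (−0.16), Cox10 (1.18), Trat1 (1.53), Ccnd2 (0.089), Enpp4 (0.19) and Tgtp1 (0.36). Leaving out 1 library, it ran from −0.31 to 0.029 for Foxp3, above 0 without old replicate 3, and from −0.29 to 0.051 for Tgtp1, above 0 without old replicate 2, neither of them called. Genes with few reads limit the lower calls, since 81 of 236 had a mean below 50.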
